A study of Mus musculus with 8 samples.

Results

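5330434G04Rik is a gene of the mouse X chromosome that makes a long intergenic noncoding RNA, and it was read here in single nuclei of the cerebral cortex at postnatal day 25. It was selected by its symbol, as 1 gene of the 32285 in the deposited lists. Its difference between genotypes in these same libraries was known when it was selected, so levels and genotype differences of this gene are given as a description with no test, while sex, index type and neighbouring genes were not used to select it and are tested. The 8 libraries came from 8 dissected cortices with the medial part removed, 4 from wild-type (WT) and 4 from Chd8 heterozygous (Chd8het) C57BL/6J mice, 2 male and 2 female mice per genotype, and all of them were prepared with the 10x Genomics 3′ kit, v3 chemistry. In each of the 4 groups replicate 1 was single-indexed and replicate 2 dual-indexed. The mice were matched as 4 pairs by litter and sex, per the labels' protocols, and a pair is taken here to be the WT and Chd8het library that share sex and replicate number, which the labels do not spell out. Nothing used here describes the Chd8 allele itself, and no other allele or treatment is given.

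CHD8 is a chromatin remodeller that uses ATP to move nucleosomes, and loss of 1 copy of the gene is one of the well-established genetic causes of autism spectrum disorder in humans. Long noncoding RNAs are transcribed and spliced much like messenger RNAs without being read into protein, and many stay in the nucleus, which suits a measurement made on nuclei. In females 1 of the X chromosomes is largely silenced through the noncoding RNA Xist, and a minority of X-linked genes escape that silencing and are made from both copies. The cortex mixes excitatory projection neurons, arranged in layers by where their axons go, with GABA-releasing interneurons that arise in the ganglionic eminences of the ventral forebrain, and with glia.

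The gene (ENSMUSG00000087620) lies on the minus strand at chrX:105348282-105391776 in GRCm38, a span of 43.5 kb with 4 annotated transcripts in GENCODE M21. Inside it sits the microRNA gene Mir325 (chrX:105379082-105379179, same strand), which begins 12.6 kb from the start of the gene, in an intron of all 4 transcripts and in none of their exons. A second microRNA gene, Mir384, lies 3.91 kb beyond the 3′ end. A microRNA finds its target messenger RNAs mainly through its seed, bases 2 to 8 from the 5′ end, which are in capitals in the mature sequences (RefSeq, GRCm38.p6) shown here because Mir325 lies inside the gene and Mir384 just beyond it.
mmu-miR-325-5p: cCUAGUAGgugcucaguaagugu
mmu-miR-325-3p: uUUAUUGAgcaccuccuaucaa
mmu-miR-384-5p: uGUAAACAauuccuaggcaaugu
mmu-miR-384-3p: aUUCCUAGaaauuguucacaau
The seed of miR-384-5p is that of 3 other mature mouse microRNAs in the same table, miR-30a-5p, miR-30c-5p and miR-30e-5p. The other 3 seeds matched no other microRNA of the table. The counts are of gene transcripts, and mature microRNAs were not measured.

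The region around the start of the gene is shown because the level of the gene differed between cell types and, as a description without a test, between genotypes. Whether this region has a part in either difference was not tested. It runs from 250 bases before to 50 bases after the RefSeq start (chrX:105391705-105392004, minus strand, GRCm38.p6), with 51% G or C, and its capitals mark matches to TGACG, the core letters bound by CREB-type factors, on either strand.
promoter of 5330434G04Rik: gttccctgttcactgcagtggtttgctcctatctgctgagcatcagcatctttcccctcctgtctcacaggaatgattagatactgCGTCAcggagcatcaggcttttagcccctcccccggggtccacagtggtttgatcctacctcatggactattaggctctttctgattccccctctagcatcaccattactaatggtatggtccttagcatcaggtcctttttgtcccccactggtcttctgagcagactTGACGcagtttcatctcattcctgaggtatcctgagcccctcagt
There were 2 such matches, and 20.8% of the 32851 mouse promoters of the same length held at least 1. The letters TATAAA (13.6% of promoters), CCAAT (37.4%), GGGCGG (35.7%) and CANNTG (72.3%), each searched on both strands, were not found in this window. A match is a run of letters and not a measured binding site.

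Libraries held 69503598 to 98132783 UMIs (unique molecular identifiers, each standing for 1 captured RNA molecule), and 77890 nuclei were kept, with 81873 UMIs of the gene between them. Each nucleus was assigned by lists of marker genes to 1 of 16 types, each name meaning resemblance by markers, and 44905 nuclei (57.7%) were in these types. All listed markers were highest in their own type, compared within excitatory neurons, interneurons or other cells, in 13 of the 16. The exceptions were L5/6 IT, where only Deptor and Osr1 of 5 markers were highest, L6 CT (4 of 5) and Pvalb (4 of 5). Chd8 itself stood at 78.9 ± 2.77 CPM (the counts-per-million scale, UMIs of a gene relative to all UMIs of the same nuclei) in WT and 80.2 ± 6.31 CPM in Chd8het libraries (mean ± SD, n = 4 each). A 3′ count cannot separate the alleles, so this does not check the genotype labels. Among kept nuclei 715 barcodes occurred in more than 1 library (0.927%), and no library repeated another of its group, since a chi-square of their counts, run only as a check for repeated deposits, was 67.5 to 139 times its degrees of freedom.

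The gene was detected in all 16 types, and its level divided the cortex mainly by class of neuron. Levels are CPM within the same nuclei, given as the mean ± SD over the 8 libraries. Interneurons stood at the top. Pvalb interneurons, the fast-spiking cells named for parvalbumin, had 652 ± 67.9 CPM, Reln interneurons 609.8 ± 75.6, Vip interneurons 592 ± 87.0 and Sst interneurons 387 ± 42.7. The first 3 could not be put in order, since Pvalb exceeded Reln in 6 of 8 libraries and Reln exceeded Vip in 5 of 8, with gaps smaller than their SD. Sst interneurons, which are named for somatostatin and share a medial origin with Pvalb cells, were below Pvalb in 8 of 8 libraries, by 1.69 ± 0.112-fold, and above the highest excitatory type in 8 of 8.

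Among excitatory neurons the deep-layer types other than L6b had more of the RNA than the upper-layer ones. L6 CT neurons, which project to the thalamus, had 182 ± 38.0 CPM. L5 ET neurons, which send axons out of the telencephalon, had 139.6 ± 35.7, the L5/6 IT group, whose axons stay within the cortex and striatum, 125 ± 35.9, and L5/6 NP (near-projecting) neurons 121 ± 39.2. Upper-layer L4/5 IT and L2/3 IT neurons had 64.4 ± 18.1 and 61.4 ± 22.3 CPM, and L6b neurons, the remnant of the subplate, 58.6 ± 22.3. L6 CT exceeded L2/3 IT in 8 of 8 libraries, by 3.15 ± 0.699-fold. L5/6 IT and L5/6 NP were not separated (4 of 8 libraries each way), nor were L4/5 IT and L2/3 IT (6 of 8) or L2/3 IT and L6b (3 of 8). Because the genotypes differed in excitatory neurons, these SDs over 8 libraries hold that difference too.

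**Figure D1:**
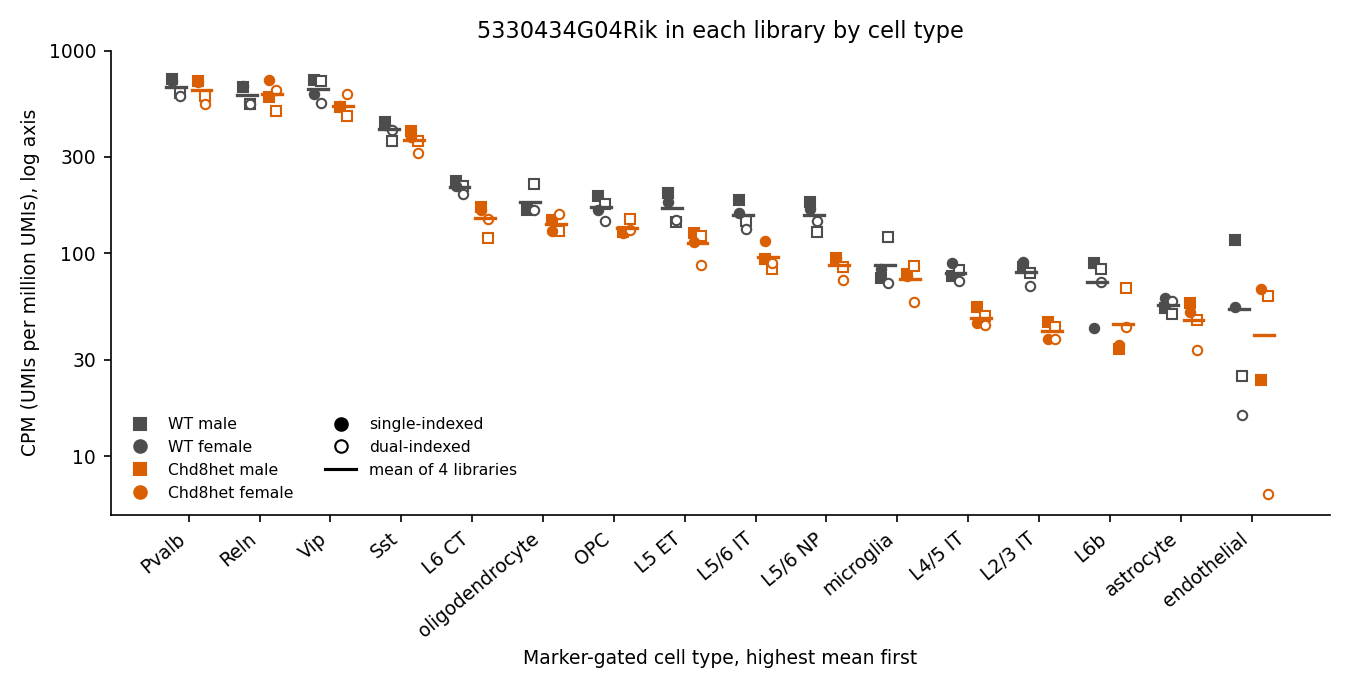
CPM of 5330434G04Rik (log axis) in each of the 8 libraries for 16 gated cell types, ordered by mean, with WT in grey and Chd8het in orange, squares for males, circles for females, filled for single-indexed and open for dual-indexed, and bars at the mean of 4 libraries. The 4 interneuron types sit above all others in both genotypes, and in 6 of the 7 excitatory types, all but L6b, the 4 orange points lie below the 4 grey ones.

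In glia the RNA was found mainly in the oligodendrocyte lineage. Oligodendrocytes, which make myelin, had 159.7 ± 28.8 CPM and their precursors (OPC) 151 ± 24.6, against 51.4 ± 8.53 in astrocytes. Both exceeded astrocytes in 8 of 8 libraries, oligodendrocytes by 3.196 ± 0.853-fold and OPC by 3.01 ± 0.613-fold, and did not separate from each other (6 of 8). Microglia, the immune cells of the brain, had 81.5 ± 17.9 CPM. Endothelial nuclei gave 28 UMIs of the gene in 362 nuclei, or 36.7 CPM over all libraries (95% exact Poisson interval 24.4 to 53.0, counting error only). Mural cells and fibroblasts, with 15 and 21 UMIs, were at 25.7 and 38.0 CPM.

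Free RNA in the droplets gives UMIs in cells that do not make a gene, so the low levels were set beside its signs. Barcodes that failed the nucleus filter held the gene at 51.6, 71.9, 77.7 and 63.8 CPM in WT (males 1 and 2, females 1 and 2) and at 33.9, 68.2, 42.6 and 54.8 CPM in Chd8het. The genotypes overlapped, and the Chd8het value was the lower one in every pair. These barcodes are not the kept nuclei, and the amount of free RNA within a kept nucleus was not measured. The levels in astrocytes, endothelial cells, mural cells and fibroblasts were within or below that range, though astrocytes exceeded the failed barcodes of their own library in 3 of 8 libraries. The microglial mean was just above that range, and microglia exceeded the failed barcodes of their own library in every library. The 8-library means of L4/5 IT, L2/3 IT and L6b lay within it too, as did both genotype means of L6b and the Chd8het means of L2/3 IT and L4/5 IT. RNA from 1 source keeps its genes in 1 ratio, so the gene was set against Gad1 and Gad2, which make the GABA-synthesising enzymes. The ratio was 0.460 to 1.67 gene UMIs per Gad1 and Gad2 UMI over the libraries of Pvalb, Sst, Vip and Reln cells, and 3.598 to 9.95 in oligodendrocytes. Pooled over libraries it was 7.91 in L2/3 IT, 9.64 in L4/5 IT and 2.95 in L6b, against 2.39 over all nuclei, and L2/3 IT and L4/5 IT held 7.71 and 6.67 CPM of Gad1 and Gad2 where astrocytes held 22.5. In OPC it was 1.72 to 4.19, in astrocytes 1.349 to 3.52 and in microglia 1.20 to 2.12. Per UMI of Camk2a, a kinase gene of excitatory neurons, the pooled ratio was 0.197 over all nuclei, 0.733 in oligodendrocytes, 0.804 in OPC, 0.248 in astrocytes, 0.227 in microglia and 0.141 in endothelial cells. It was 0.058 in L2/3 IT, 0.067 in L4/5 IT and 0.170 in L6b. In oligodendrocytes both pooled ratios were above those of all nuclei, with a Gad1 and Gad2 ratio of 5.64. The part of free RNA in the glial, L2/3 IT, L4/5 IT and L6b levels was not tested further.

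Interneurons, counted here with those without a subtype and with 90 striatal projection nuclei gated in the same class, were 5.96% of kept nuclei. This class held 25.8% of all UMIs of the gene. Excitatory neurons were 57.9% of nuclei and held 54.4%. In WT libraries the interneuron share was 24.3 ± 1.56% of gene UMIs and in Chd8het libraries 27.6 ± 2.38%, and the excitatory share was 57.8 ± 1.02% and 50.2 ± 1.04% (SD, n = 4 each). The share of nuclei that were excitatory was 58.6 ± 3.03% and 57.4 ± 2.04%, and the share that were interneurons 6.31 ± 0.616% and 5.66 ± 0.142%. The excitatory share of the gene's UMIs was thus smaller in Chd8het, while the shares of excitatory nuclei differed by less than their SD. The interneuron share of nuclei was lower in Chd8het, by more than either SD. Nuclei that no list claimed held 12.03 ± 2.198% of gene UMIs in WT and 15.5 ± 2.53% in Chd8het. They were 14.2 ± 3.18% and 16.01 ± 2.16% of nuclei. The part of these shares in the genotype difference was not tested.

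A UMI of the gene was captured in most interneuron nuclei and in fewer than 1 in 2 upper-layer or glial nuclei, shares that depend on depth and do not show which nuclei lack the RNA. At least 1 UMI was present in 97.0% of Pvalb nuclei (mean of 8 libraries), 93.7% of Reln, 90.2% of Vip and 81.5% of Sst nuclei, against 62.4% of L6 CT, 35.0% of L2/3 IT, 31.9% of oligodendrocyte and 11.6% of astrocyte nuclei. Depth differed between types, with library medians of 7951 to 11499 UMIs per Pvalb nucleus and 2494 to 3121 per astrocyte. After thinning every nucleus to 1000 UMIs the shares were 45.1%, 43.0%, 38.4%, 29.6%, 16.1%, 5.91%, 12.7% and 4.46% in the same order, with 0 Pvalb, 0 Reln, 0 Vip, 4 Sst, 8 L6 CT, 1 L2/3 IT, 371 oligodendrocyte and 82 astrocyte nuclei left out as shallower. In WT libraries the thinned shares were 8.21 ± 2.00% in L2/3 IT (6.40% to 10.2%) and 7.65 ± 1.01% in L4/5 IT, against 5.21 ± 0.615% in astrocytes (4.79% to 6.12%), and in Chd8het libraries 3.62 ± 0.625%, 4.26 ± 1.20% and 3.70 ± 0.965%. At equal depth upper-layer neurons were thus above astrocytes in WT, with no shared value, and overlapped with them in Chd8het, while the oligodendrocyte mean was near that of L5 ET neurons (11.8%). Positive nuclei held 6.76 UMIs of the gene on average in Pvalb cells, up to 27 in 1 nucleus, and 1.87 in L2/3 IT cells. Of the Pvalb nuclei 264 of 1217 held 10 or more UMIs, and of the L2/3 IT nuclei 2 of 7757.

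**Figure D2:**
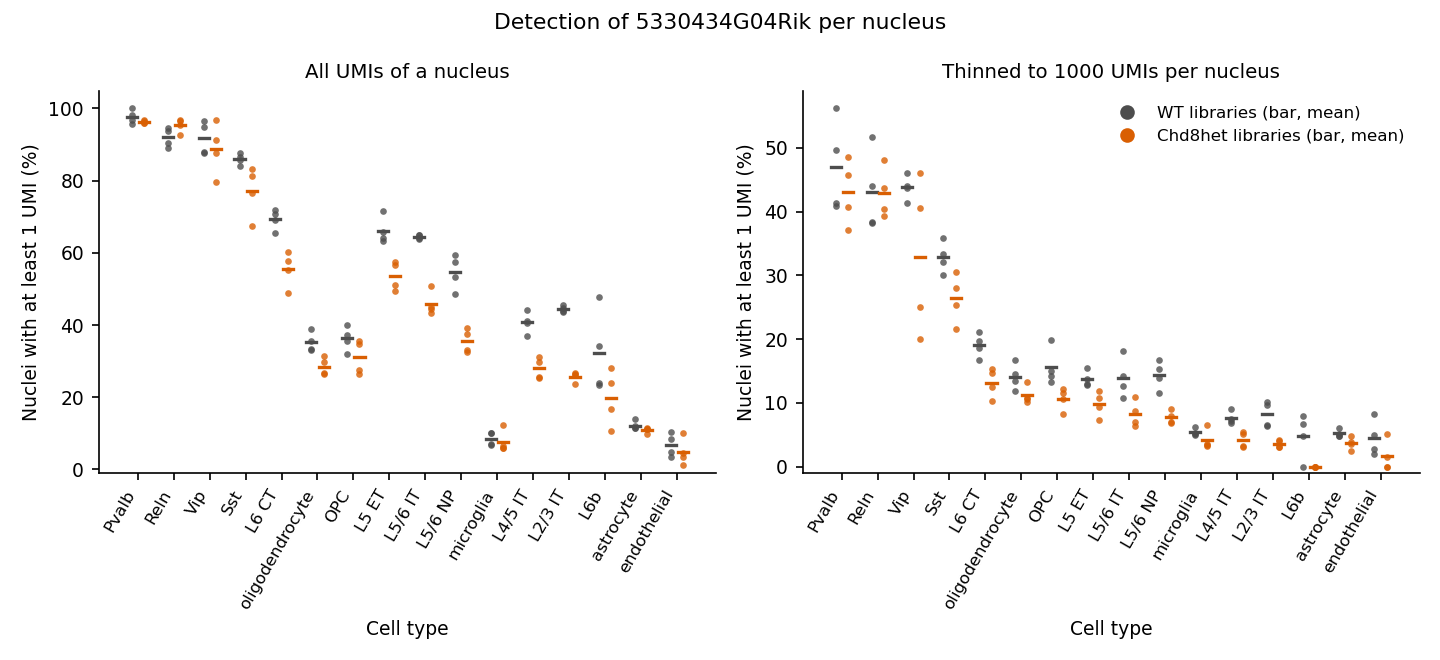
Percent of nuclei with at least 1 UMI of 5330434G04Rik per library (points; grey WT, orange Chd8het; bars, mean of 4), with all UMIs on the left and after thinning to 1000 UMIs per nucleus on the right, by cell type in the order of mean level. In L2/3 IT the WT libraries lie at 43.6% to 45.5% and the Chd8het libraries at 23.6% to 26.7% before thinning, and in Pvalb both genotypes lie above 95%.

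Over all kept nuclei the gene was lower in every Chd8het library than in every WT library. Levels in males 1 and 2 and females 1 and 2 were 175, 164, 177 and 150.5 CPM in WT and 130.5, 126, 127 and 113 CPM in Chd8het, always in that order here and below. The means were 167 ± 12.2 and 124 ± 7.60 CPM (SD, n = 4 each), and edgeR with sex in the model put the log2 change at -0.46 (SE 0.08). Of the 21225 genes tested there, 0.382% had every WT library above every Chd8het library, and no test is attached to this contrast, which selected the gene. The difference was -47.6 CPM within single-indexed and -37.6 CPM within dual-indexed libraries, and -41.1 CPM in males and -44.0 CPM in females.

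Among the 15 fitted types the 2 genotypes were furthest apart, in relative terms, in the 7 excitatory ones. Of these 7, 6 had no overlap, and the largest relative difference was in L2/3 IT. Outside the fitted types, excitatory Car3 IT nuclei were 17.4% lower with overlap, and committed precursors of oligodendrocytes 40.5% lower without overlap. L2/3 IT neurons, which connect cortical areas, had 85.8, 79.8, 90.5 and 69.4 CPM in WT and 46.1, 43.6, 38.1 and 37.9 CPM in Chd8het. The groups did not overlap (0.531% of 15440 tested genes had every WT library above every Chd8het library), and the mean went from 81.3 ± 9.09 to 41.4 ± 4.07 CPM, 49.1% lower, a log2 change of -0.99 (SE 0.11). The Chd8het mean was within the 33.9 to 77.7 CPM of failed barcodes and the WT mean only just above it. Every WT library was above its own failed barcodes, and of the Chd8het libraries only male 1 was. The pooled ratio to Gad1 and Gad2 was above that of all nuclei and the ratio to Camk2a below it. The part of free RNA in this level was not tested. L4/5 IT neurons, which include the cells that receive thalamic input, had 77.2, 82.5, 89.5 and 72.8 CPM in WT against 54.4, 49.2, 45.4 and 44.2 in Chd8het, again without overlap (0.524% of genes), at -0.76 (SE 0.10) on the log2 scale. Its Chd8het mean of 48.3 CPM was likewise within the range of failed barcodes. Both types showed the difference in 4 of 4 pairs, with pair values of -0.90, -0.87, -1.25 and -0.87 in L2/3 IT and -0.50, -0.75, -0.98 and -0.72 in L4/5 IT.

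The deep-layer types other than L6b had higher mean levels than the upper-layer types in both genotypes. In L5/6 IT the WT libraries had 184, 145, 158 and 131 CPM and the Chd8het libraries 93.5, 84.2, 115 and 89.3 CPM, with a log2 change of -0.72 (SE 0.14) and no overlap (0.476% of genes). L5/6 NP neurons had 179, 128, 167 and 144 CPM against 95.5, 86.1, 95.02 and 74.0 CPM, the second largest relative difference at -0.85 (SE 0.13), also without overlap (0.586% of genes). L5 ET neurons had 198, 144, 179 and 146 CPM against 126, 122, 114 and 87.5 CPM and a log2 change of -0.61 (SE 0.14). Their groups were apart as well (0.68% of genes), though male pair 2 differed by only -0.23.

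L6 CT neurons, the excitatory type with the highest level, had 229, 215, 214 and 197 CPM in WT and 170.0, 119.9, 163 and 147 CPM in Chd8het. The groups did not overlap (0.663% of genes) and the log2 change of -0.52 (SE 0.12) was the smallest of the 7 fitted excitatory types, although in CPM the mean difference of -63.8 was larger than the -39.9 of L2/3 IT. L6b neurons, with 252 nuclei and 195 UMIs of the gene in all, had 89.9, 83.6, 42.9 and 72.0 CPM against 33.9, 67.5, 35.6 and 43.2 CPM. Their groups overlapped (no overlap in 0.916% of genes) and the log2 change was -0.68 (SE 0.26), lower in 4 of 4 pairs, with both means (72.1 and 45.0 CPM) within the range of failed barcodes. Car3 IT nuclei, an excitatory group of 1002 nuclei outside the 16 types and with no fitted value, had 126, 103, 149.7 and 90.7 CPM in WT and 98.2, 124, 93.3 and 71.5 CPM in Chd8het. They overlapped, with a mean 17.4% lower in Chd8het and pair values of -0.36, 0.27, -0.68 and -0.34, so 1 of their 4 pairs was higher in Chd8het. The 17471 excitatory nuclei that no subtype list claimed had 116 ± 11.5 CPM in WT and 78.2 ± 6.46 in Chd8het, lower in 4 of 4 pairs.

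**Figure D3:**
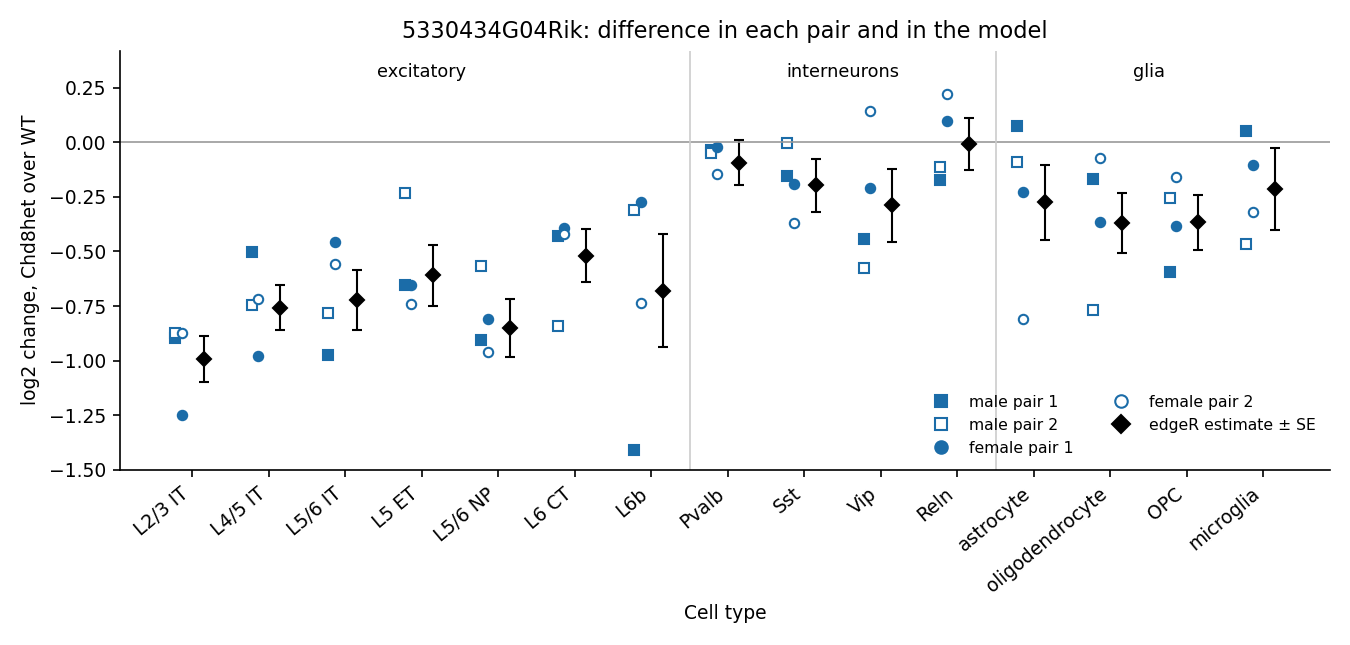
Log2 change of 5330434G04Rik, Chd8het over WT, for 15 cell types, with 1 blue symbol per pair (squares male, circles female; filled pair 1, open pair 2) and the edgeR estimate with its SE in black. All 28 pair values of the 7 excitatory types drawn (Car3 IT is not drawn) lie below 0, from -1.41 to -0.23, while interneuron pair values run from -0.58 to 0.22.

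In Pvalb and Reln interneurons, which had the highest mean levels of the gene, the genotypes lay close together. Pvalb cells had 729, 622, 707 and 601 CPM in WT and 711, 601, 698 and 543 CPM in Chd8het. The groups overlapped (no overlap in 0.596% of 10232 genes tested), with means of 665 ± 62.5 and 638 ± 80.0 CPM and a log2 change of -0.09 (SE 0.10). Within each genotype both single-indexed libraries were above both dual-indexed ones, a spread larger than the genotype difference. Reln cells, a group that includes the layer 1 and neurogliaform interneurons, had 663, 544, 672 and 548 CPM against 589, 503, 720.4 and 639.7 CPM, a change of -0.01 (SE 0.12) with overlap (none in 0.902% of genes) and nearly equal mean CPM of 607 ± 70.6 and 613 ± 91.3, the male pairs being lower and the female pairs higher in Chd8het.

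Sst cells had 447, 360.3, 428 and 406 CPM in WT and 402, 359.5, 375 and 315 CPM in Chd8het. They overlapped (no overlap in 0.959% of genes), were lower in 4 of 4 pairs, and had a log2 change of -0.20 (SE 0.12). Vip cells, which mostly inhibit other interneurons, had 716, 709, 613 and 554 CPM against 527, 475, 531 and 613 CPM. They were lower in 3 of 4 pairs with overlap (none in 1.2% of genes), at -0.29 (SE 0.17), from 281 nuclei. In CPM the Vip difference of -112 was larger than that of any excitatory type. The Sst difference of -47.7 CPM lay inside the range of the 7 fitted excitatory types, -66.6 to -27.1 CPM. Those of Pvalb (-26.4) and Reln (6.09) were smaller than in any of the 7, so the classes were not separated in CPM. The 1340 interneurons that no subtype list claimed had 566 ± 56.4 CPM in WT and 491 ± 60.5 in Chd8het, lower in 4 of 4 pairs with overlap. Sncg-type interneurons had 591 ± 122 and 520 ± 74.0 CPM, lower in 3 of 4 pairs with overlap. Neither group was fitted. Their differences of -75.2 and -71.6 CPM were larger than in any of the 7, and in relative terms were 13.3% and 12.1%.

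Set side by side, the log2 changes of the 7 fitted excitatory types ran from -0.99 to -0.52 and those of the 4 interneuron types from -0.29 to -0.01, with no value shared. Car3 IT, which was not fitted, had a mean pair value of -0.28. On that measure the interneuron types ran from -0.27 in Vip to 0.01 in Reln, and the 7 excitatory types from -0.97 in L2/3 IT to -0.52 in L6 CT. Car3 IT thus lay next to Vip and outside the range of the 7, so the gap between the classes does not extend to all excitatory nuclei. The classes stayed apart under 18 of 19 alternatives and overlapped under the other, thinning to equal depth (under 1 of the 18, the stricter gate, Vip had no value), where the interneuron values ran from -0.71 in Vip to -0.08 in Reln and the 6 excitatory types with a value from -1.25 to -0.51. At equal depth Vip thus lay inside the excitatory range, Sst was at -0.38 and Pvalb at -0.20, and no test of a difference between the classes was run. Within a library, the level in Pvalb cells was 8.19 ± 0.453 times that in L2/3 IT cells in WT and 15.5 ± 2.02 times in Chd8het (SD, n = 4 each), 7.80 to 8.67 against 13.8 to 18.3. The same ratio to L6 CT was taken for Sst cells, at 1.92 ± 0.169 in WT and 2.45 ± 0.379 in Chd8het. Across the 15 types the log2 change and the log2 WT level had a Pearson r of 0.593, and 0.544 within the 7 excitatory types; these points share libraries and the WT level enters both measures.

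In oligodendrocytes and OPC the log2 change was smaller than in any of the 7 fitted excitatory types, while committed precursors had a fall in mean CPM within the range of those types. Oligodendrocytes had 164, 220.5, 167 and 165 CPM in WT and 146, 129, 129.7 and 157 CPM in Chd8het, without overlap (0.727% of genes), at -0.37 (SE 0.14). WT male 2 stood well above the other 3 WT libraries. OPC had 193, 176, 165 and 145 CPM against 128, 148, 126 and 130.2 CPM, lower in 4 of 4 pairs with a small overlap (none in 0.889% of genes), at -0.37 (SE 0.13). Committed precursors, the stage between them, had 148 ± 35.0 and 88.0 ± 20.1 CPM, 40.5% lower, from 338 nuclei and 156 UMIs of the gene. Their WT libraries ran from 114 to 191 CPM and their Chd8het libraries from 60.1 to 107 CPM, lower in 4 of 4 pairs with a mean pair value of -0.75. That fall compares with 29.8% in L6 CT to 49.1% in L2/3 IT among the 7 fitted excitatory types, and 17.4% in Car3 IT. After thinning to equal depth the OPC value was -0.57 and lay within the excitatory range, and that of oligodendrocytes was -0.37. In bulk sums of nuclei, fewer nuclei that make the RNA and less RNA in each cannot be told apart from the level alone.

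Astrocytes at 55.7 ± 4.52 and 47.2 ± 10.0 CPM and microglia at 87.7 ± 22.03 and 75.2 ± 12.6 CPM overlapped between genotypes (no overlap in 0.827% and 0.89% of genes). Their log2 changes were -0.27 (SE 0.17) and -0.21 (SE 0.19), each lower in 3 of 4 pairs. Single libraries moved these values, and the astrocyte value was -0.12 without Chd8het female 2 and the microglial one -0.07 without WT male 2 and -0.34 without WT male 1. The astrocyte means lie in the range of failed barcodes over all libraries and so does the Chd8het mean of microglia, while the WT mean of microglia is above it. The top of that range came from a WT library, and microglia exceeded the failed barcodes of their own library in every library. Endothelial nuclei, with at most 6 UMIs of the gene in a library, did not pass the count filter and have no fitted value. Summed excitatory markers (5 genes, all with UMIs) were 320 to 453 CPM in WT and 390.1 to 524 CPM in Chd8het astrocytes, and 334 to 444 against 353 to 610 CPM in oligodendrocytes. In L2/3 IT nuclei the 4 interneuron markers summed to 8.67 to 12.6 CPM in WT and 10.0 to 16.6 CPM in Chd8het, and in Pvalb nuclei the 5 excitatory markers to 249 to 332 and 276 to 355 CPM. Their part in the result was not tested.

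In 6 of the 7 fitted excitatory types every Chd8het library had a smaller share of nuclei with a UMI of the gene than every WT library, and in 5 of 7 after thinning. How often other genes separate the genotypes in this way by detection was not counted, here or below. The exceptions among them were L6b, with 23.3% to 47.8% in WT and 10.7% to 28.0% in Chd8het, lower in 3 of 4 pairs, and, after thinning only, L5/6 IT, with 10.9% to 18.1% against 6.43% to 10.9%, lower in 3 of 4 pairs. Car3 IT overlapped both ways, with thinned shares of 9.72 ± 2.46% and 9.80 ± 3.32%. At least 1 UMI was found in 44.4 ± 0.833% of L2/3 IT nuclei in WT and 25.7 ± 1.42% in Chd8het (SD, n = 4 each), and in 8.21 ± 2.00% and 3.62 ± 0.625% after thinning, with no overlap either way. Positive L2/3 IT nuclei held 1.99 ± 0.0212 UMIs of the gene in WT and 1.75 ± 0.117 in Chd8het. Nuclei with 5 to 9 UMIs were 3.03 ± 0.506% in WT and 1.11 ± 0.363% in Chd8het. In L6 CT the shares with a UMI were 69.3 ± 2.81% and 55.5 ± 4.82%, and 19.1 ± 1.83% and 13.2 ± 2.26% after thinning. The thinned share in Chd8het L2/3 IT nuclei was about that in Chd8het astrocytes, 3.70 ± 0.965%, while the 4 interneuron markers were at 13.3 ± 2.69 CPM in the first and 40.5 ± 3.24 CPM in the second.

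In Pvalb nuclei the shares were 97.6 ± 1.91% and 96.3 ± 0.422%, and 47.1 ± 7.28% and 43.1 ± 5.11% at 1000 UMIs, with overlap. Nuclei with 10 or more UMIs were 23.0 ± 1.84% and 20.3 ± 2.58%. In Sst nuclei the share went from 86.0 ± 1.49% to 77.1 ± 6.96% without overlap, which after thinning became 32.8 ± 2.46% and 26.4 ± 3.83% with overlap. Oligodendrocytes had 35.2 ± 2.68% and 28.5 ± 2.39%, and thinned 14.1 ± 2.05% and 11.2 ± 1.37%, which overlapped.

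Although the gene is X-linked, no sex difference in it was called. In all kept nuclei females had 142 ± 28.2 CPM and males 149 ± 24.2 CPM (SD, n = 4 each), a log2 difference, female over male, of -0.08 (SE 0.08, edgeR quasi-likelihood, adjusted p 0.9998). Among the 15 types it was called in 0 by edgeR, with 0 at an unadjusted p under 0.05 and 0 by the DESeq2 Wald test, and its log2 difference ran from -0.48 (SE 0.26) in L6b to 0.17 (SE 0.12) in Reln, with females higher in 2 of 15 types. Reln females were higher in 4 of 4 matched comparisons, and Pvalb and OPC females in 0 of 4. Over the 16 fits, 0.0525% of tested genes were called for sex. In all nuclei an approximate 95% interval of the log2 difference, taken from the SE, was -0.23 to 0.07.

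Genes that escape X inactivation were set beside 5330434G04Rik for comparison. The list held Kdm6a and Kdm5c, histone demethylases, Eif2s3x, a translation initiation subunit, and Ddx3x, an RNA helicase, all of which are known to escape in mice. Median log2 differences over cell types, female over male, were 0.56 for Kdm6a, 0.43 for Eif2s3x, 0.41 for Ddx3x and 0.20 for Kdm5c, against -0.03 for 5330434G04Rik. In all nuclei Kdm6a had 0.57 (SE 0.08, adjusted p 0.184, edgeR quasi-likelihood) and Eif2s3x 0.56 (SE 0.08, adjusted p 0.262). Of 54 gene and cell type values for these 4 genes, 52 were higher in females, 0 were called by edgeR (25 at an unadjusted p under 0.05), 3 with replicate number as a block and 6 by DESeq2. Of the X inactivation centre RNAs, Xist and Tsix were called in 15 of 15 types. Tsix overlaps Xist on the other strand, and since the labels do not say whether counting used strand, the 2 cannot be told apart. Jpx was higher in females in 15 of 15 types with a median of 0.54 and Ftx in 15 of 15 with 0.15, both with 0 calls in the main edgeR fits. With replicate number as a block Jpx was called in 3 types, L6 CT (0.54, SE 0.08, adjusted p 0.0467, edgeR quasi-likelihood), microglia and oligodendrocytes, where 0.0753% of all tested genes were called. The DESeq2 Wald test called it in 4, L2/3 IT, L4/5 IT, L6 CT and oligodendrocytes (0.0826% of all tested genes), and Ftx had 0 calls by either. Among the neighbours of 5330434G04Rik, the noncoding 5530601H04Rik was higher in females in 15 of 15 types (median 0.44) and Pbdc1 in 13 of 13 (median 0.27), with 0 calls by any of the 3 fits, and Atrx in 6 of 15 (median -0.02). No difference between the sex values of these genes and of 5330434G04Rik was tested.

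**Figure D4:**
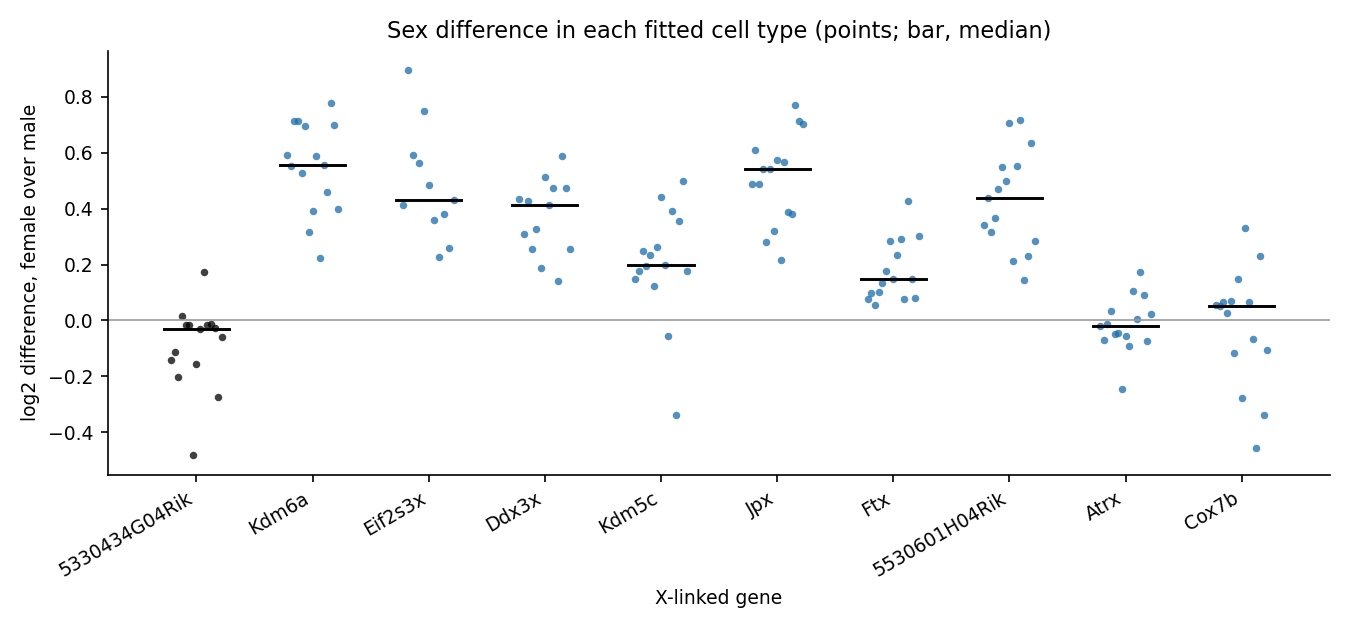
Log2 difference, female over male, in each fitted cell type (points) with the median over types (bars), for 5330434G04Rik, 4 genes that escape X inactivation, Jpx and Ftx, and the 3 neighbours within 900 kb fitted in all 15 types, ordered by distance. The points of 5330434G04Rik scatter around its median of -0.03, while those of Kdm6a and Jpx all lie above 0.

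Calls of the gene by index type, which coincides with replicate number, came in 3 of 16 fits, a share near that of all genes tested over those fits (14.6%). They numbered 0 by the DESeq2 Wald test, 0 after thinning to equal depth and 1 with DESeq2 size factors. Dual-indexed libraries were lower in all kept nuclei by 0.14 on the log2 scale (SE 0.05, adjusted p 0.0463, edgeR quasi-likelihood), a fall seen in 4 of 4 comparisons of the same sex and genotype. In Pvalb cells the single-indexed libraries had 711 ± 13.0 CPM and the dual-indexed 592 ± 33.8, and the log2 value dropped by 0.23 (SE 0.06, adjusted p 0.0270, edgeR quasi-likelihood). L5/6 IT was the third call, with a log2 difference of -0.29 (SE 0.09, adjusted p 0.0492, edgeR quasi-likelihood), and the other 13 fits had no call. Leaving out 1 library left 0 calls without WT male 1, WT male 2, WT female 1 or Chd8het female 1, 1 call without WT female 2, Chd8het male 1 or Chd8het female 2, and 2 without Chd8het male 2. Each genotype and sex had both index types, and genotype differences within each index type are given above for all nuclei. In L2/3 IT they were -46.0 CPM in single-indexed and -33.8 CPM in dual-indexed libraries, and in Pvalb -13.5 and -39.3 CPM.

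None of the genes around 5330434G04Rik was called between genotypes, in fits where edgeR called no gene at all. Within 1 Mb on either side, 18 other annotated genes were in the files, 16 passed the count filter in all nuclei and 0 were called between genotypes in any of the 16 fits by edgeR, by DESeq2 or with pairs as a block, where 0% of all tested genes were called by the main edgeR fit (4091 of 179200 values at an unadjusted p under 0.05). In the 15 types 3 of 140 neighbour values had an unadjusted p under 0.05 and 85 were lower in Chd8het. The nearest measured gene on the 3′ side was Magee1, a MAGE-family gene 224 kb away, at 4.59 ± 0.616 CPM in WT and 5.11 ± 0.744 in Chd8het (log2 change 0.12, SE 0.16). Pbdc1, 231 kb away, had 21.97 ± 2.39 and 21.0 ± 2.55 CPM (-0.10, SE 0.08). The noncoding 5530601H04Rik, 269 kb away, had 45.7 ± 7.71 and 46.1 ± 8.72 CPM (-0.02, SE 0.12), and differed by -0.17 to 0.47 over the 15 types.

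On the 5′ side the nearest gene above 1 CPM was Atrx, a chromatin remodeller mutated in an X-linked intellectual disability syndrome, 406 kb away. It had 239 ± 23.7 CPM in WT and 229 ± 30.8 CPM in Chd8het, a log2 change of -0.10 (edgeR quasi-likelihood, SE 0.11 and adjusted p 0.9999), and was lower in 14 of 15 types, by at most 0.27. Magt1 (576 kb), Cox7b (624 kb) and Atp7a (636 kb), whose products handle magnesium transport, respiration and copper transport, had log2 changes of -0.02, 0.15 and 0.11 in all nuclei. The largest values belonged to Fnd3c2 (-0.68, SE 0.23) and Magee2 (0.64, SE 0.32), both under 0.4 CPM. Further out, Pgk1 of glycolysis (795 kb) stood at -0.09. Cypt2, at 108 kb, had no UMI in the kept nuclei, and Fgf16 did not pass the filter.

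**Figure D5:**
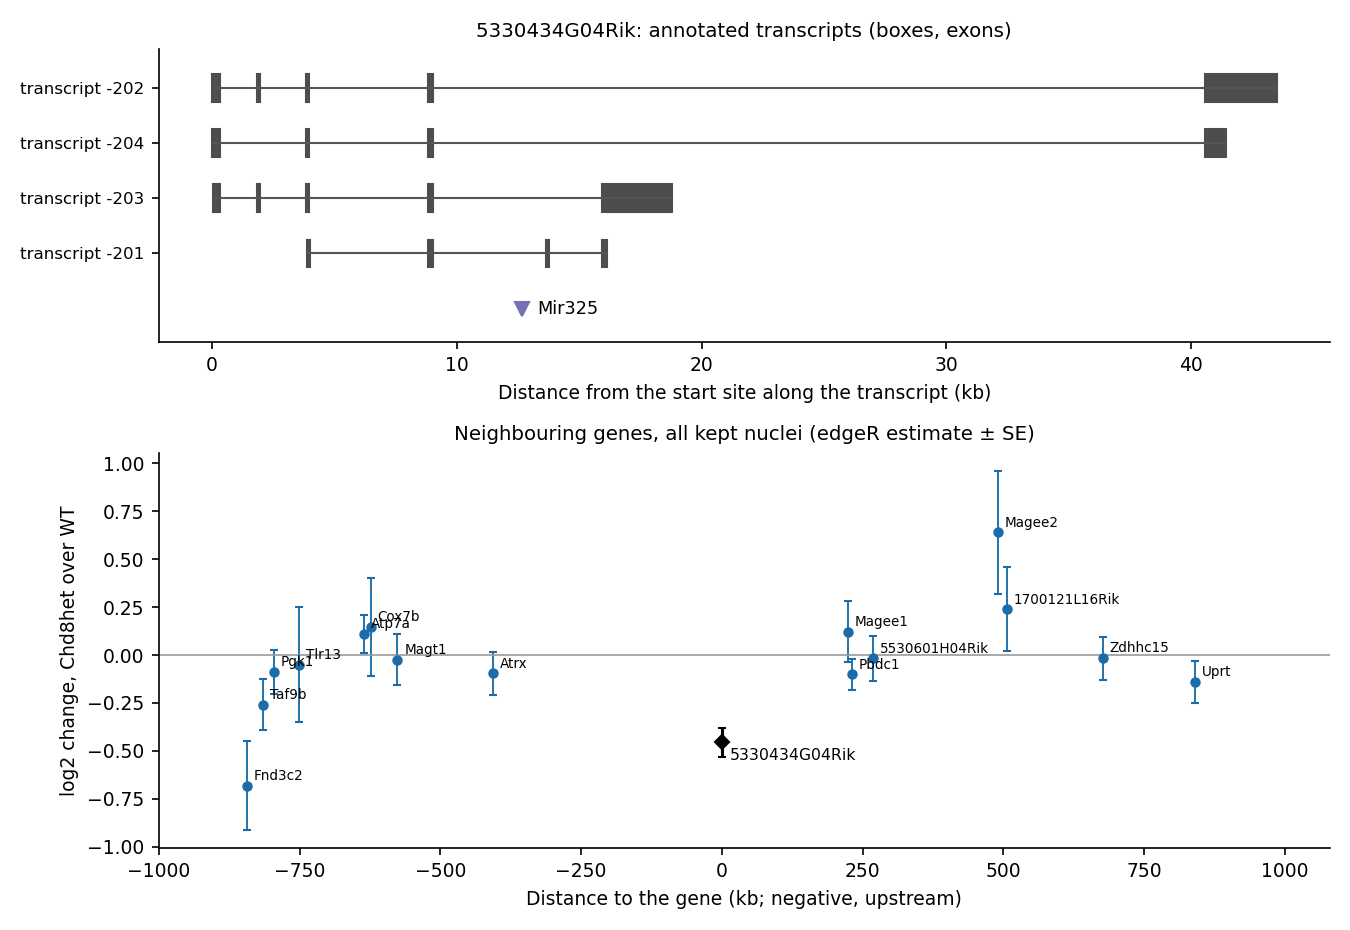
Above, the 4 annotated transcripts of 5330434G04Rik with exons as boxes along the distance from the start site (kb), and the place of Mir325. Below, the log2 change, Chd8het over WT, with SE in all kept nuclei for the gene (black) and its 15 tested neighbours within 900 kb (blue) against distance to the gene (kb, negative upstream), where the gene sits at -0.46 and the neighbours above 1 CPM within 500 kb lie between -0.10 and 0.12.

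X-linked genes with roles in neurons were likewise without a call. Of the 9 on the list, which includes the migration gene Dcx, the synaptic organisers Il1rapl1 and Nlgn3 and the receptor subunit Gria3, 0 were called between genotypes in any fit by edgeR or DESeq2, with 1 of 132 type values at an unadjusted p under 0.05. In all nuclei their median log2 change was -0.03, against 0.00 over all genes tested. Xist, lower in Chd8het in 15 of 15 types by 0.05 to 0.25, was not called in any of them, and stood at -0.03 (SE 0.22) in all nuclei.

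Several regulators of interneuron lineage correlated with the gene over cell types, the closest of them at low counts. Over the 15 fitted types, the mean log2 CPM of 5330434G04Rik correlated with that of Dlx6 at r = 0.854, Dlx2 at 0.852, Dlx1 at 0.839 and Dlx5 at 0.761, homeobox genes of the ganglionic eminences. Dlx2, Dlx5 and Dlx6 passed the count filter in none of the 15 types and Dlx1 in 4, so these correlations rest on low counts in most types. Lhx6, the regulator of medially derived interneurons, had 0.575, and Adarb2, a marker of caudally derived ones, 0.619, and the lowest of the 14 was Satb1 at 0.026, while the gene itself was abundant in both lineages. None of the 14 lineage genes measured was called between genotypes by edgeR or DESeq2 (which called 0.00893% of all tested genes), with 4 of 81 type values at an unadjusted p under 0.05. With pairs as a block 2 of the 81 were called, where 0.0167% of all tested genes were, Adarb2 in Pvalb (-1.24, SE 0.17, adjusted p 0.00619, edgeR quasi-likelihood) and Sox6 in Reln (1.12, SE 0.21, adjusted p 0.0437), each a gene of the other lineage. Adarb2 in Pvalb was also called for sex with replicate number as a block, and by more (-1.5, SE 0.20, adjusted p 0.000417, edgeR quasi-likelihood). The same fit called it for sex in Sst too (-0.85, SE 0.17, adjusted p 0.0237, edgeR quasi-likelihood). None of the regulators gated the nuclei, but Dlx6os1, which lies over Dlx6 on the other strand, did, and these correlations describe 15 points from the same 8 libraries.

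The 5 genes most like 5330434G04Rik by the same measure, of 21225, were Tcaf3 (r = 0.914), 1810034E14Rik (0.903), the kainate receptor subunit Grik2 (0.903), the orphan receptor Gpr176 (0.895) and 1700026F02Rik (0.895). All had their highest level in an interneuron type. Only 3 genes exceeded 0.9. Their ranges over types differed, from 1.249 log2 units for Tcaf3 to 5.31 for Gpr176, against 3.65 for 5330434G04Rik.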

How the data were processed

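Per the labels' protocols, cortices were frozen and nuclei of all 8 samples were isolated in parallel before library preparation. The submitters' processing notes name STAR 2.7.9a, STARsolo, Cell Ranger and the build mm10, without roles; the annotation, strand use and treatment of intron reads are not given in the sources used here. As deposited by the authors, values are whole-number UMI counts per gene and barcode (32285 genes, 97772 barcodes). The members and lists were chosen with earlier results of these data known.

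Nuclei with at least 500 genes and at most 5% mitochondrial UMIs were kept (82168), and 4278 doublets called by Scrublet (scanpy 1.11.5, 5.21%) were removed. Nuclei were named by marker lists: the class by mean log-normalized markers capped at percentile 80 (margin 0.1), the neuronal subtype by mean z-score (margin 0.2), with at least 3 UMIs on the list; 3622 nuclei lay near the class limit and 4803 near the subtype limit. Of 111 markers 110 matched. Counts were summed per library and type; types needed 20 nuclei per library. edgeR 4.0.16 (filterByExpr with minimum count 10, trimmed-mean scaling, quasi-likelihood F test, two-sided, model of sex and genotype, or with index type added for that term) gave log2 changes and, with Benjamini-Hochberg adjustment over all genes of a type, calls at adjusted p under 0.05. SEs were derived from the F statistic. The fit was checked on counts drawn with known changes for L2/3 IT and Sst, where it called 85% and 78% of 2-fold changes. Of its calls there, 9 of 194 and 9 of 185 were false. Those counts held no sex, index type or pair effect, so the check does not cover data that hold them. Correlations over types used log2(CPM + 1). Intervals on counts cover counting error only. Named genes were the gene itself, tested neighbours within 1 Mb, the 5 most correlated genes and 4 lists. Gene coordinates are from GENCODE M21. Some genes of the lists are not reported here.

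Whether numbers pair the libraries was checked on deviations from genotype means: libraries of the same sex and number correlated in all 15 types (r 0.147 to 0.648), while those of the same number but other sex ran from -0.0637 to 0.369. Libraries of the same sex and number also share index type, so these correlations cannot show that they are litter pairs. Pairs are used, as an assumption, as a replicate block in an alternative (for sex, which pairs share, replicate number is the block). Other alternatives were DESeq2 1.42.0, its size factors, no count filter, index type added, doublets kept, stricter nuclei, looser and stricter gates, 49 Leiden clusters, thinned counts, and each library left out.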

Additional observations from a re-analysis of the deposited data

Results flagged for a closer look

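In oligodendrocytes WT male 2 had 220.5 CPM, set apart from the other 3 WT libraries at 164, 167 and 165 CPM by most of the group's range. Of 34 groups of 4 libraries examined this was the 1 so marked, and chance marks about 1 in 20. Without that library the log2 change in oligodendrocytes was -0.26 in place of -0.37.

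In Reln interneurons both male pairs were lower in Chd8het (-0.17 and -0.11 on the log2 scale) and both female pairs higher (0.10 and 0.22), so the sexes moved in opposite directions, by 0.304 between their means. The difference was not tested.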

How the results depend on the processing

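Over 302 recomputed genotype values of the gene in 16 fits, 299 stayed below 0; the other 3 were in Reln, whose value ran from -0.09 to 0.08, so no direction can be given there. In 293 the value moved by less than the SD of the 4 pair values. Thinning to equal depth gave -1.25 in L2/3 IT, -0.20 in Pvalb, -0.38 in Sst, -0.71 in Vip and -0.57 in OPC; clusters in place of the gate gave -0.62 in L5/6 NP; the stricter gate gave -0.54 in microglia. With single libraries left out, all nuclei ranged from -0.50 to -0.41 and Pvalb from -0.151 to -0.040. With the replicate block the value was -0.99 in L2/3 IT, -0.76 in L4/5 IT and -0.84 in L5/6 NP.

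Calls over all genes between genotypes were 0 in the main fits, 30 with the replicate block, 16 with the DESeq2 Wald test, 21 with index type added, 1 with the stricter gate, 173 with no count filter and 0 to 6 with 1 library left out. Sex calls over all genes were 94, 148 by DESeq2, 135 with the block and 1003 with no filter, and sex calls of the gene were 0 under every alternative run. Index calls over all genes were 26143, 8537 after thinning, 17470 by DESeq2 and 12791 to 29708 with a library left out. Index calls of the gene were 3, but 0 by DESeq2 Wald, 1 with DESeq2 size factors, 0 after thinning, and 0 to 2 with a library left out. Neighbours called between genotypes stayed at 0 under every alternative run. The Pvalb to L2/3 IT ratio was 11.8 over all libraries and 11.2 to 12.2 with other gates, clusters, nuclei or thinning. Shares with a UMI depend on depth: at least 2 UMIs gave 16.1% in L2/3 IT and 90.0% in Pvalb, and thinning 5.91% and 45.1%. No value was obtained for endothelial cells, for L6b or Vip under 1 alternative each, or for calls of index type with the block, which holds that term. Microglia at 1321.5 to 1710 and astrocytes at 2494 to 3121 median UMIs are limited by depth. The cause of these movements was not tested.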

Other observations

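Nuclei outside the 16 types had the gene too. The 296 Sncg-type interneurons, named from 3 markers, were at 555 ± 101 CPM over 8 libraries, and 1340 interneurons without a subtype at 529 ± 67.4. The 11896 nuclei no list claimed were at 281 ± 46.4 CPM, with 132 CPM of Gad1 and Gad2 together, against 60.3 over all kept nuclei. Striatal projection neurons, 90 nuclei, had 180.0 CPM over all libraries (95% exact Poisson interval 151 to 213, counting error only). Their libraries, with 1 to 24 nuclei each, ran from 80.2 to 449.6 CPM (226 ± 133), a spread that the interval does not cover.

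Single nuclei reached high counts outside the types named as interneurons. The highest count was 35 UMIs of the gene, reached in the L5/6 NP group, where positive nuclei averaged 2.43, and among the nuclei that no list claimed. Whether such nuclei were interneurons that the gate missed, or undetected doublets, was not tested. Among 3572 microglia 3 nuclei held 10 or more UMIs and among 4621 astrocytes 0 did.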
